A study of Homo sapiens with 24 samples.

Results

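SLNCR is a long noncoding RNA listed under the symbol LINC00673, and the comparison described here sets A375 cells that carried SLNCR without its triplex-forming region 2 (ΔTFR2) against A375 cells that carried full-length SLNCR (FL). The members are 6 RNA-seq libraries, 3 per group and all from batch 1, out of 24 libraries in the series. They were taken by their labels and by the raw counts deposited for them. A375 is an established human melanoma line that carries an activating BRAF mutation. Both groups were transfected with SLNCR on pcDNA3.1, a plasmid with a CAG promoter and puromycin resistance, by lipofection, and spent 48 h in 2 µg/mL puromycin in DMEM with 10% serum. RNA was depleted of ribosomal RNA and read as paired ends of 150 bp. Both groups thus carried an overexpression plasmid beside the cells' own SLNCR gene. The other 6 libraries of batch 1 (empty vector and SLNCR without region 1) entered the model only to help estimate the spread between replicates. The design text calls the replicates biological, and p-values measure the spread between these libraries alone.

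Triplex-forming regions are parts of an RNA that are predicted to lie in the major groove of double-stranded DNA and pair there with a run of purines on one strand. Such RNA–DNA triplexes are one route by which a long noncoding RNA can be brought to particular genes, where bound proteins then raise or lower transcription. SLNCR has been linked with melanoma invasion, and proteins reported to bind it include the transcription factor Brn3a (gene POU4F1). MMP9, a matrix metalloprotease, and CDKN1A, a cell cycle inhibitor whose reported regulation by SLNCR involves EGR1, are among its reported target genes. Setting a deletion mutant beside the full-length RNA asks which genes respond to the deleted region.

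The 6 libraries held 8655057 to 10789211 counts, and 14310 of the 28008 genes in the table passed the filter on low counts. Median absolute log2 differences per gene ran from 0.102 to 0.170 between FL libraries and from 0.102 to 0.113 between ΔTFR2 libraries. FL replicate 3 stood apart on the first principal component (37.4% of the variance), at -29.1 against -6.91 and 0.49 for FL replicates 1 and 2 and 9.01 to 16.2 for ΔTFR2. The widest difference within a group was between FL replicates 2 and 3, while FL replicate 2 differed from ΔTFR2 replicates 1 and 3 by 0.112. The labels give the cell type as epithelial. Of the epithelial markers, EPCAM, CDH1, KRT5, KRT14 and KRT19 stayed at or below 0.437 CPM (read counts scaled to a common library size), while KRT8 and KRT18 were plentiful. Among melanocyte lineage markers MITF lay at 86.7 to 101 CPM and SOX10 at 10.9 to 15.3 CPM, and TYR and S100B had no counts. Markers of immune, endothelial and fibroblast cells summed to 112 to 135 CPM in FL and 113 to 129 in ΔTFR2, nearly all of it CD68, and PTPRC, CD3E, VWF, CDH5 and DCN stayed at 6 counts or fewer over the 6 libraries.

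SLNCR itself was measured first. Its level in FL replicates 1 to 3 was 165, 239.9 and 220.0 CPM, and in ΔTFR2 replicates 1 to 3 it was 206, 187 and 192 CPM. FL replicate 1 was the lowest of the 6 and FL replicate 2 the highest, so all ΔTFR2 libraries fell within the FL range. The log2 fold change of ΔTFR2 against FL was -0.09 ± 0.11 (SE), with a 95% interval of -0.34 to 0.15 and an adjusted p of 0.64 by edgeR's quasi-likelihood test. Single FL libraries moved this value: without FL replicate 1 it was -0.25 (adjusted p = 0.0215), and without FL replicate 2 it was 0.01 (0.949). Reads of the whole gene count the plasmid and the endogenous RNA together, and they check nothing about the deletion of region 2.

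Of the genes linked with SLNCR, CDKN1A was measured at 275, 266 and 267 CPM in FL and at 287, 304 and 303 CPM in ΔTFR2. All 3 ΔTFR2 libraries lay above all 3 FL libraries, and CDKN1A rose by 0.14 ± 0.05 on the log2 scale (adjusted p = 0.045). The call was lost in every fit that left out 1 library, with adjusted p from 0.0797 to 0.252 (0.142 without FL replicate 3). It was also lost with the 6 libraries of the comparison alone (0.0859) and by another test, DESeq2 (0.0502). With each library's GC trend removed the difference was 0.01 (0.965). EGR1, an immediate-early transcription factor, stood at 24.4, 26.6 and 29.01 CPM in FL and at 32.0, 31.6 and 30.2 CPM in ΔTFR2. Its groups did not overlap either, but the difference of 0.23 ± 0.11 did not pass (adjusted p = 0.155). POU4F1 lay at 3.97, 3.46 and 3.02 CPM in FL and at 3.58, 3.28 and 2.84 CPM in ΔTFR2. Its groups overlapped and it did not pass (adjusted p = 0.786). MMP9 had 9 counts over the 6 libraries and was too low to test.

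Across the transcriptome many genes differed by small amounts. Of 14310 genes tested, 1432 (10%) were called at an adjusted p under 0.05, 695 higher in ΔTFR2 (4.86%) and 737 lower (5.15%). The median size of a called change was 0.25 on the log2 scale, which is 1.19-fold, and 61 called genes changed by at least 0.5 and 10 by at least 1. Of the 1432, 1368 (95.5%) had 3 ΔTFR2 libraries that did not overlap the 3 FL libraries, against 4237 of all tested genes (29.6%). The number rested on single libraries: without FL replicate 3 it was 185 (1.28% of those tested), 60 higher (0.414%) and 125 lower (0.862%). Without ΔTFR2 replicate 2 it was 0 by edgeR, with 2802 genes at an unadjusted p under 0.05 and a smallest adjusted p of 0.0697.

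The called genes were divided by base composition. Genes higher in ΔTFR2 had transcripts with a median GC content of 59.4% and a median length of 2934 bases, and genes lower in ΔTFR2 had 38.6% and 5019.5 bases, against 47.9% and 3586 bases over all tested genes. Split into 5 groups of 2695 genes by GC content, the group with the lowest had 540 genes lower in ΔTFR2 and 3 higher. The group with the highest had 396 higher and 1 lower. The median log2 fold change climbed through the 5 groups from -0.15 to -0.08, 0.00, 0.09 and 0.17. Chromosome 19, which is rich in GC, had 137 of its 945 tested genes higher (14.5%) and 5 lower, while chromosome 18 had 1 of 198 higher and 24 lower (12.1%).

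**Figure D1:**
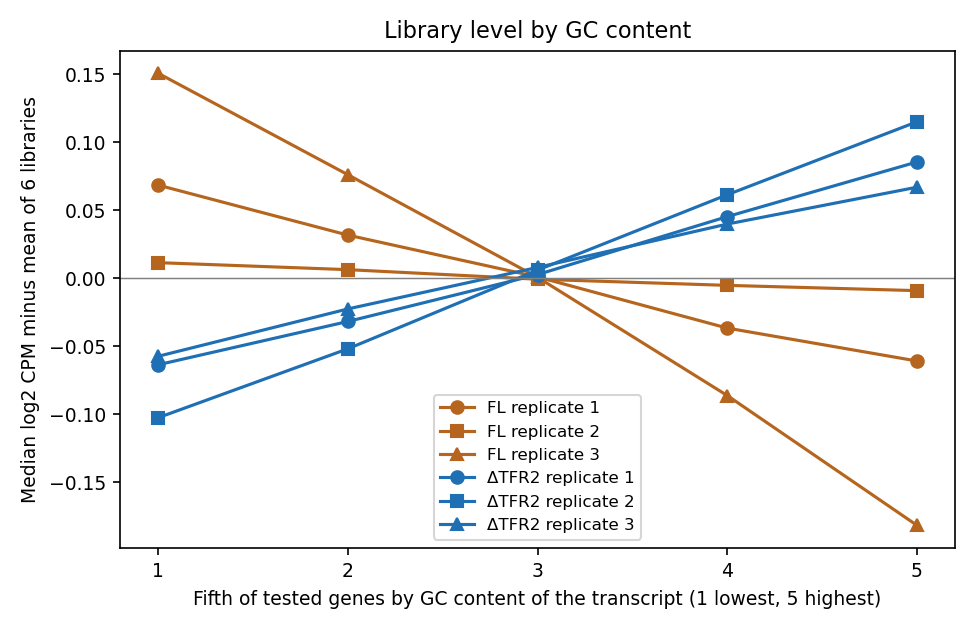
Median log2 CPM of each library minus the mean of the 6 libraries (vertical axis) in 5 equal groups of 2695 genes ordered by transcript GC content (horizontal axis). FL libraries slope down and ΔTFR2 libraries slope up, from 0.15 to -0.18 in FL replicate 3 and from -0.10 to 0.12 in ΔTFR2 replicate 2.

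This trend ran through whole libraries. Relative to the mean of the 12 batch 1 libraries, log2 CPM changed by -0.10, -0.05 and -0.18 per 10 percentage points of GC in FL replicates 1 to 3 and by 0.02, 0.05 and 0.00 in the ΔTFR2 replicates. The groups did not overlap in this slope, FL replicate 3 was steepest, and FL replicate 2 was nearest to ΔTFR2. With the trend of each library removed, 25 genes were called (0.175%), 12 higher (0.0839%) and 13 lower (0.0908%), of which 21 were among the 1432. Of the 25, 4 have no GC value, so no trend was removed for them. The part that base composition plays in the calls was not tested beyond these values, and it cannot be told apart from the group, since the slope differs with the group. Within FL the slopes of replicates differed by more than some slopes differed between the groups.

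**Figure D2:**
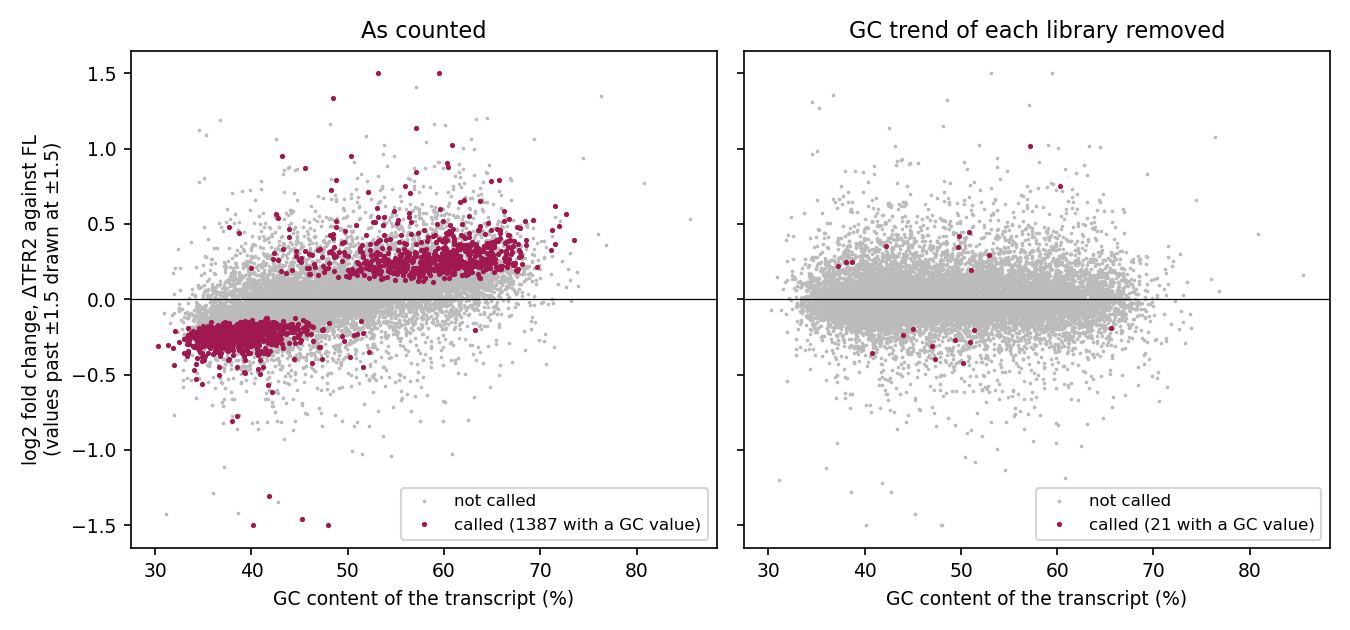
Log2 fold change of ΔTFR2 against FL (vertical axis) by GC content of each gene's transcript in percent (horizontal axis), with called genes in dark red, as counted (left, 1387 called genes with a GC value) and with each library's GC trend removed (right, 21 called genes with a GC value). The cloud tilts upward on the left and lies level on the right.

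A set of 12 genes (0.0839% of those tested) passed in each of 4 fits: with 12 libraries, with the 6 libraries of the comparison alone (where 5.2% of genes were called), without FL replicate 3, and with the GC trend removed. None of the 12 passed without ΔTFR2 replicate 2, where their adjusted p ran from 0.0697 to 0.0919. Of the 12, 6 were higher and 6 lower. Of these, 11 are described below with positions from GENCODE release 29 on GRCh38.

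Among the rises, PLPP4 (chr10:120456954-120589855, plus strand), a membrane phosphatase that removes phosphate from phosphatidic acid and related lipids, stood at 2.03, 2.62 and 2.05 CPM in FL and at 4.73, 4.97 and 5.14 CPM in ΔTFR2. Every ΔTFR2 library held close to 5 CPM and no FL library reached 3, and PLPP4 rose by 1.14 ± 0.21 (adjusted p = 0.00732), a 2.20-fold rise. Its counts were low, at 22, 28 and 19 in FL and 41, 47 and 47 in ΔTFR2. CCDC151 (chr19:11420604-11435782, minus strand), which helps dock the outer dynein arms of motile cilia, stood at 9.98, 11.8 and 7.01 CPM in FL and at 15.9, 19.1 and 19.1 CPM in ΔTFR2. FL replicate 3 was lowest, the groups did not overlap, and CCDC151 rose by 0.90 ± 0.14 (0.00435). IER5 (chr1:181088712-181092899, plus strand), an immediate-early gene that acts with heat shock factor 1, stood at 34.5, 37.2 and 29.1 CPM in FL and at 45.1, 49.2 and 44.2 CPM in ΔTFR2, and it rose by 0.45 ± 0.09 (0.00796) with no overlap between the groups. With the GC trend removed these 3 genes had adjusted p values of 0.044, 0.00851 and 0.0226.

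RUSC1-AS1 (chr1:155316863-155324176, minus strand), an RNA read antisense to RUSC1, stood at 24.96, 26.4 and 20.8 CPM in FL and at 32.7, 39.1 and 30.3 CPM in ΔTFR2 and rose by 0.50 ± 0.10 (0.00957). EPN1 (chr19:55675226-55709858, plus strand), which encodes epsin, an adaptor that bends membrane at clathrin-coated pits, stood at 135, 141 and 109 CPM in FL and at 164, 179 and 157 CPM in ΔTFR2 and rose by 0.37 ± 0.07 (0.00957). In both genes FL replicate 3 was the lowest library and ΔTFR2 replicate 2 the highest, and the groups did not overlap. EPN1 lost its call with GC and length trends both removed (0.104).

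Among the falls, CAV2 (chr7:116287380-116508541, plus strand), a caveolin of the flask-shaped pits of the plasma membrane, stood at 88.4, 80.4 and 112 CPM in FL and at 68.6, 64.2 and 70.2 CPM in ΔTFR2. FL replicate 3 was highest, the 3 ΔTFR2 libraries lay close together below all FL libraries, and CAV2 fell by 0.47 ± 0.09 (0.0108). HIF1A-AS2 (chr14:61715558-61751097, minus strand), an antisense transcript that overlaps HIF1A, stood at 121, 113 and 139 CPM in FL and at 96.6, 89.1 and 97.3 CPM in ΔTFR2 and fell by 0.40 ± 0.07 (0.00435). Its groups did not overlap, and it was the only gene called with the GC trend removed and FL replicate 3 left out together (0.00932), a setting chosen after seeing the data. With GC and length trends both removed it missed the threshold (0.0569).

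The other 4 falls were small and tight within ΔTFR2. HSPE1 (chr2:197499994-197503457, plus strand), the mitochondrial co-chaperonin, stood at 25.1, 29.8 and 24.5 CPM in FL and at 20.8, 20.5 and 19.7 CPM in ΔTFR2 and fell by 0.38 ± 0.10 (0.0158). DYM (chr18:49041474-49461347, minus strand), which encodes dymeclin, a protein of the Golgi apparatus, stood at 88.8, 85.5 and 103 CPM in FL and at 73.1, 73.5 and 76.2 CPM in ΔTFR2 and fell by 0.31 ± 0.07 (0.00957). Neither gene's groups overlapped, and HSPE1 was the one whose highest FL library was replicate 2. HSPE1 was not called without ΔTFR2 replicate 3 (0.0581). SERTAD2 (chr2:64631621-64751005, minus strand), a transcriptional co-regulator that acts with E2F factors, stood at 190.0, 184 and 219 CPM in FL and at 159.8, 160.5 and 164 CPM in ΔTFR2 and fell by 0.29 ± 0.05 (0.00732). CCNI (chr4:77047158-77076005, minus strand), which encodes cyclin I, stood at 227, 226 and 255 CPM in FL and at 208, 194 and 197 CPM in ΔTFR2 and fell by 0.24 ± 0.05 (0.00957). In SERTAD2 and CCNI all ΔTFR2 libraries lay below all FL libraries, of which replicate 3 was the highest. HSPE1 has many processed pseudogenes, so how its reads were assigned is uncertain.

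**Figure D3:**
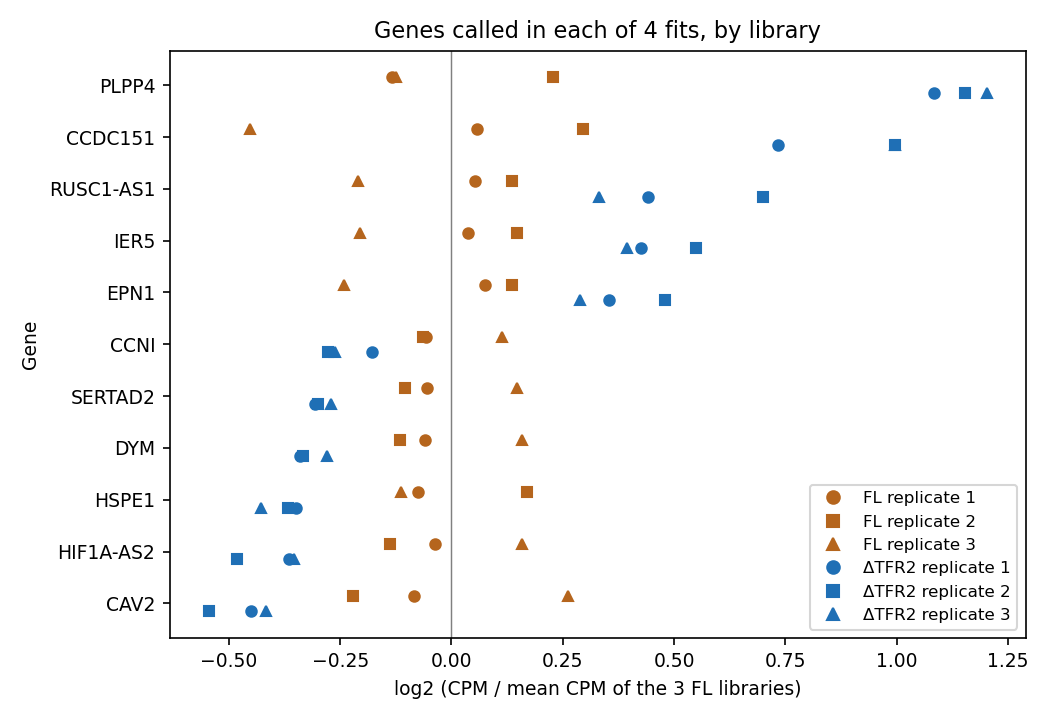
Level of each of the 11 genes described in each library as log2 of its CPM over the mean CPM of the 3 FL libraries (horizontal axis), with FL in orange, ΔTFR2 in blue and replicates 1 to 3 as circles, squares and triangles. In every gene the 3 ΔTFR2 points lie on one side of the 3 FL points, and the widest gap is that of PLPP4, which rose by 1.14.

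Close relatives of these genes were read beside them, chosen after their values were seen. CAV1, the caveolin that forms hetero-oligomers with CAV2 and neighbours it on chromosome 7, stood at 820.1, 752 and 869 CPM in FL and at 740.3, 708 and 709.7 CPM in ΔTFR2 and fell by 0.18 ± 0.05 (0.0208). CAV1 was not called with the GC trend removed (0.0797) or without FL replicate 3 (0.081). CAVIN1, the coat protein of caveolae, lay at 263, 272 and 207 CPM in FL and at 309.9, 323 and 299 CPM in ΔTFR2, a difference of 0.33 ± 0.10 in the other direction (adjusted p = 0.051). CAVIN1 was called without FL replicate 3 (0.0466), and with the GC trend removed it was at 0.18 (0.128). The other caveolae genes tested, EHD2, PACSIN2 and CAVIN3, were at 0.09, 0.14 and 0.10, and none was called. HSPD1, the chaperonin that works with HSPE1 and shares its promoter region, stood at 865, 919 and 784 CPM in FL and at 858, 886 and 869 CPM in ΔTFR2. The groups overlapped in HSPD1, and its difference was 0.02 ± 0.05 (0.795).

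At the HIF1A locus the transcripts went different ways. HIF1A, the oxygen-regulated transcription factor, stood at 438, 413 and 484 CPM in FL and at 404, 379 and 398 CPM in ΔTFR2 and fell by 0.18 ± 0.05 (0.0293), and with the GC trend removed its adjusted p was 0.988. HIF1A-AS1, the antisense transcript at the other end of HIF1A, stood at 29.02, 28.2 and 19.4 CPM in FL and at 32.4, 33.8 and 37.6 CPM in ΔTFR2 and rose by 0.43 ± 0.12 (0.0303), a call lost without FL replicate 3 (0.26, adjusted p = 0.132). The strand setting of the counting is not given in the sources used here, so reads of HIF1A and of its antisense transcripts cannot be told apart with certainty, and the same holds for RUSC1-AS1. RefSeq gives the symbol HIF1A-AS2 to a shorter transcript at the 3′ end of HIF1A than GENCODE does, and which of them was counted is not given in the sources used here. Of 20 hypoxia genes none rose and 3 fell, HIF1A, ERO1A and KDM3A (GC 44.1%). The list's median was 0.01, against -0.0007 without FL replicate 3 and 0.02 with the GC trend removed. None of the 20 passed in either of these fits.

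The DNA just upstream of the RefSeq starts of these genes was read for the purine or pyrimidine runs that a triplex needs. RefSeq (GRCh38.p14) gave a promoter for 10 of these 11 genes, and DYM is the other one. Windows with more than 30 bases of exon sequence were set aside, and 6 remained. Of these 6, 4 windows were taken. That of CCNI held the longest run, and PLPP4, IER5 and HIF1A-AS2 had the largest changes among the 6 genes. Each is the 250 bases upstream of the RefSeq start, 5′ to 3′ on the gene's own strand, with the longest unbroken run of purines (A or G) or pyrimidines (C or T) in capitals.
PLPP4 (chr10:120456704-120456953, plus strand): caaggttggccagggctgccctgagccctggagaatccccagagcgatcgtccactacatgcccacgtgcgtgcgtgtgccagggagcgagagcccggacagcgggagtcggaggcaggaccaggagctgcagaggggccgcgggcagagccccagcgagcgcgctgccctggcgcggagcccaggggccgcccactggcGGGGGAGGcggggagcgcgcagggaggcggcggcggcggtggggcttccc
IER5 (chr1:181088450-181088699, plus strand): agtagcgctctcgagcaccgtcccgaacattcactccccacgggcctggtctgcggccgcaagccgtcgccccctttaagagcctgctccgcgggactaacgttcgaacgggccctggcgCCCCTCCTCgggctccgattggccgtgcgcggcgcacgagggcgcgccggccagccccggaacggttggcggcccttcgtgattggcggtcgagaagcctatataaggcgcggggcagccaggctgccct
HIF1A-AS2 (chr14:61749090-61749339, minus strand): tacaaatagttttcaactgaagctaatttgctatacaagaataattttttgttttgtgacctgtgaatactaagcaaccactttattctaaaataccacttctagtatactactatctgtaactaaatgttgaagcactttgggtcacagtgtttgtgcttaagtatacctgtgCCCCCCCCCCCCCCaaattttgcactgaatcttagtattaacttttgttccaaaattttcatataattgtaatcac
CCNI (chr4:77075990-77076239, minus strand): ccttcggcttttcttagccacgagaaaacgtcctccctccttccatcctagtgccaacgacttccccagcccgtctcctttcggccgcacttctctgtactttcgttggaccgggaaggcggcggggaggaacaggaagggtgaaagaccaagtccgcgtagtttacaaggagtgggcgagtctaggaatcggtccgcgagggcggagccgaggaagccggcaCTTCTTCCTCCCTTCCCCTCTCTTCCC

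The window of PLPP4, which rose, holds a purine run of 8 bases, and that of IER5, which rose, a pyrimidine run of 9. The window of HIF1A-AS2, which fell, lies just beyond the 3′ end of HIF1A and holds a run of 14 cytosines. It lies inside the longer GENCODE gene of that name. CCNI, which fell, has a pyrimidine run of 27 bases that ends at the base before the RefSeq start. By the GENCODE position given above, 16 of these bases lie inside the transcribed gene. Of the 10 genes with a promoter 3 held a run of at least 15 bases, counted as A or G, or C or T, on either strand: CCNI, RUSC1-AS1 (17) and HSPE1 (15). The windows of RUSC1-AS1 and HSPE1 are exon sequence throughout, as are those of CAV2 and CCDC151. By the GENCODE positions given above, the windows of HSPE1 and CAV2 lie inside their own genes. Over all tested genes with a promoter 1879 of 10840 did (17.3%). Among genes called higher the share was 17.0% (96 of 566), among genes called lower 17.8% (106 of 597), and among genes not called 17.3%. For runs of at least 20 bases these shares were 4.95%, 5.03% and 5.79%. The runs are letters in a window of DNA, and no sequence of region 2 was used to choose them.

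The 10 largest rises were taken among called genes whose mean log2 CPM reached 1 and whose groups did not overlap. They were mostly of genes near the filter. After PLPP4 came NME2, a nucleoside diphosphate kinase, at 1.85, 2.80 and 2.696 CPM in FL and at 5.08, 6.77 and 3.06 CPM in ΔTFR2, a rise of 1.03 ± 0.27 (0.0204). COX17, the copper chaperone of cytochrome c oxidase, stood at 3.33, 3.08 and 1.62 CPM in FL and at 4.96, 5.71 and 5.14 CPM in ΔTFR2 and rose by 0.95 ± 0.24 (0.0153). BATF3, a bZIP transcription factor that pairs with JUN proteins, stood at 3.05, 1.96 and 2.26 CPM in FL and at 4.39, 5.92 and 3.06 CPM in ΔTFR2 and rose by 0.87 ± 0.28 (0.0441). ΔTFR2 replicate 3 of NME2 and BATF3 lay close to the FL range. NME2 shares sequence with NME1, which stood at 0.13 ± 0.07 (0.216), so the split of reads between them is uncertain. The pseudogenes ALOX12P2, PI4KAP2 and UBE2CP5 rose by 0.95, 0.85 and 0.79, and of these PI4KAP2 also passed without FL replicate 3 (0.0278). PI4KAP2 missed the threshold with the GC trend removed (0.0697).

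The 10 largest falls, taken by the same rule, were likewise of genes at low levels. MIR7-1, a microRNA gene that lies in an intron of HNRNPK, stood at 2.13, 1.68 and 3.45 CPM in FL and at 1.15, 0.740 and 0.984 CPM in ΔTFR2 and fell by 1.31 ± 0.38 (0.0302), with 7 to 10 counts in ΔTFR2. LINC01419, a long intergenic RNA, stood at 3.23, 3.74 and 3.45 CPM in FL and at 2.19, 1.69 and 2.08 CPM in ΔTFR2 and fell by 0.81 ± 0.25 (0.0407). HELB, a DNA helicase that limits end resection, stood at 16.5, 16.4 and 15.7 CPM in FL and at 11.1, 10.4 and 13.1 CPM in ΔTFR2 and fell by 0.50 ± 0.12 (0.0138). SFR1, a factor of homologous recombination, stood at 16.8, 15.3 and 15.4 CPM in FL and at 10.7, 14.3 and 8.75 CPM in ΔTFR2 and fell by 0.49 ± 0.13 (0.0208). The last 2 were also called without FL replicate 3 (0.0296 and 0.0466), but not with the GC trend removed (0.113 and 0.192). SNORD58A, MIR5087, NAPB, VAMP4, STARD4 and DNAJB7 fell by 0.50 to 0.77, and STARD4 was at -0.34 without ΔTFR2 replicate 2. DESeq2 gave no adjusted p for the 20 largest changes, all of which its filter on low mean counts set aside.

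A further 5 named genes with a GC value passed with the GC trend removed but not without FL replicate 3. BRI3, a lysosome-associated membrane protein, rose from 45.3, 49.3 and 39.6 CPM to 59.1, 58.4 and 57.3 CPM, by 0.38 ± 0.08 (0.00957). GNG11, a G protein gamma subunit, rose by 0.27. ENC1, PHC1 (a Polycomb repressive complex subunit) and RPN2 (an oligosaccharyltransferase subunit) fell by 0.24, 0.23 and 0.15. SSFA2, C18ORF54 and C18ORF25, which fell by 0.24, 0.31 and 0.21, have no GC value, so passing in that fit is no check of base composition for them. None of these 8 overlapped between the groups, and the same held for 95.5% of all called genes. Without FL replicate 3 the adjusted p of the 8 ran from 0.0501 to 0.124.

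Gene groups were then described by counts and medians, to be read against 4.86% of all tested genes higher, 5.15% lower and a median of 0.01. Of 52 lists, 30 had more members higher than lower, 15 had more lower and 7 had equal numbers. In 4 lists no member was called. Of the 2694 tested genes in any list, 254 were called. Without FL replicate 3, 23 of the 52 lists kept or gained a call, and with the GC trend removed 9 did. The median GC content is given beside the counts of most lists with at least 3 calls, and beside a printed median its value in these 2 fits where it moved by over 1.5 times. Their part in each result was not tested. Of 276 called genes that are named or in a list, 65 moved by over 1.5 times in log2 fold change without FL replicate 3 and 19 without ΔTFR2 replicate 2, all keeping their sign. Without ΔTFR2 replicate 2, no member of any list was called.

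**Figure D4:**
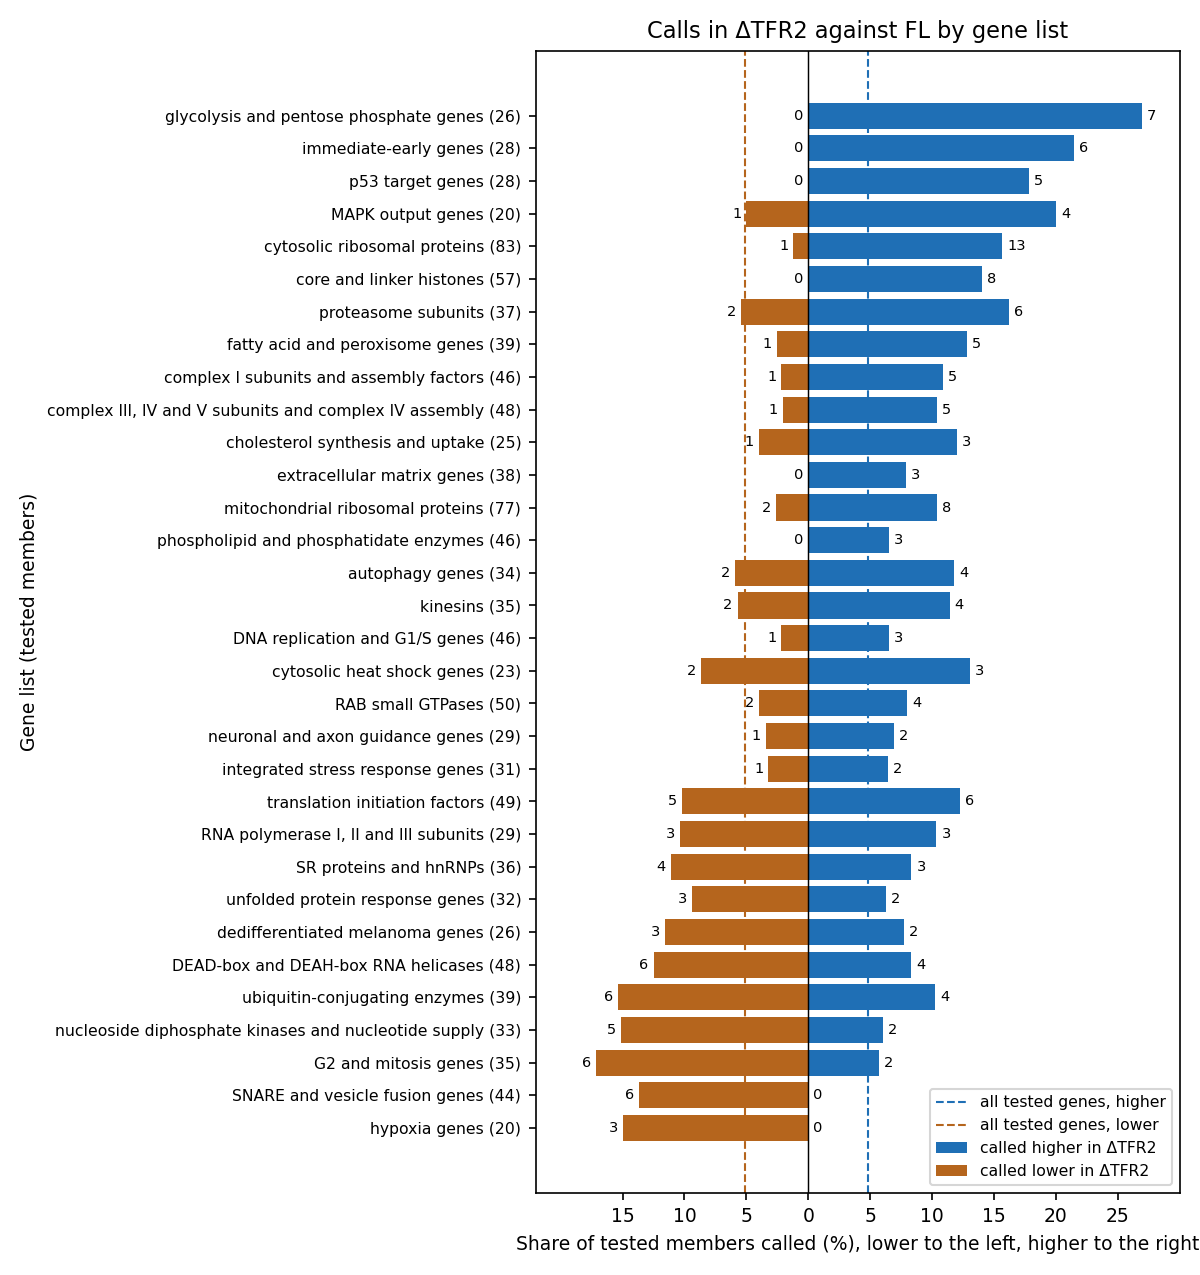
Share of the tested members of each list called lower (to the left) or higher (to the right) in ΔTFR2, in percent, with the number of genes at each bar and the tested members in brackets; lists with at least 3 called members are shown, other than the large name-based ones, and dashed lines mark all tested genes (5.15% lower, 4.86% higher). Glycolysis genes reach farthest to the right with 7 of 26, and mitosis genes farthest to the left with 6 of 35.

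Genes of the growth factor and stress response were among those that rose. Of 28 immediate-early genes, which are switched on within minutes of a stimulus, 6 rose and none fell (median 0.09, against 0.05 without FL replicate 3 and -0.01 with the GC trend removed, GC 55%). Besides IER5 these were IER2, FOSL2, JUND, FOSL1 and IER3. IER2 stood at 76.7, 84.7 and 63.2 CPM in FL and at 93.1, 102 and 95.2 CPM in ΔTFR2 and rose by 0.37 ± 0.08 (0.0135), with all ΔTFR2 libraries above all FL libraries. FOSL1, an AP-1 subunit driven by ERK in melanoma cells, stood at 455, 478 and 435 CPM in FL and at 487, 523 and 501 CPM in ΔTFR2 and rose by 0.14 ± 0.04 (0.0381). With the GC trend removed FOSL1 and JUND turned to -0.01 and -0.03, and JUND was at 0.12 without FL replicate 3, against 0.22 with it. IER5 and IER2 passed without FL replicate 3, and IER5 alone of the list passed with the GC trend removed.

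Of 20 genes of MAPK output, the transcripts that follow ERK activity, 4 rose and 1 fell (median 0.05, against 0.02 with the GC trend removed, GC 50.3%). DUSP4, a phosphatase that feeds back on ERK, stood at 303, 321 and 281 CPM in FL and at 338, 347 and 347 CPM in ΔTFR2 and rose by 0.19 ± 0.05 (0.0185). EPHA2, an ephrin receptor kinase, stood at 650.4, 666 and 587 CPM in FL and at 713, 734 and 721 CPM in ΔTFR2 and rose by 0.19 ± 0.04 (0.0132), and without FL replicate 3 it was at 0.12. SPRED1, which restrains RAS signalling, stood at 128, 119 and 131 CPM in FL and at 108, 110.3 and 118 CPM in ΔTFR2 and fell by 0.17 ± 0.06 (0.0447). The groups did not overlap in these 3 genes. No member of the list passed without FL replicate 3 or with the GC trend removed.

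Of 28 p53 target genes, 5 rose and none fell (median 0.05, against 0.01 without FL replicate 3, GC 50.6%). Beside CDKN1A they were FDXR, a mitochondrial ferredoxin reductase, PHLDA3, which restrains AKT, SESN2, a nutrient sensor, and BAX, which permeabilises the outer mitochondrial membrane. PHLDA3 stood at 53.6, 54.0 and 57.0 CPM in FL and at 67.3, 65.4 and 64.4 CPM in ΔTFR2 and rose by 0.26 ± 0.06 (0.0135). FDXR stood at 20.8, 18.7 and 17.0 CPM in FL and at 24.1, 24.95 and 27.2 CPM in ΔTFR2 and rose by 0.43 ± 0.10 (0.0108). FL replicate 3 was the highest FL library of PHLDA3 and the lowest of FDXR, neither gene's groups overlapped, and PHLDA3 was the member that passed without FL replicate 3 (0.0296). BAX overlapped between the groups, and no member passed with the GC trend removed.

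Cell cycle genes moved both ways. Of 35 genes of G2 and mitosis, 2 rose and 6 fell (median -0.05, against 0.02 with the GC trend removed, GC 43.2%). NUF2, a kinetochore component, stood at 71.1, 71.2 and 76.0 CPM in FL and at 58.6, 59.3 and 56.6 CPM in ΔTFR2 and fell by 0.32 ± 0.07 (0.00957), with ΔTFR2 below every FL library. TTK, a kinase of the spindle checkpoint, stood at 68.2, 55.9 and 74.6 CPM in FL and at 51.8, 55.0 and 54.0 CPM in ΔTFR2 and fell by 0.30 ± 0.08 (0.017). CENPE, CCNA2, HMMR and BUB3 fell by 0.14 to 0.21. PLK1, the polo-like kinase of mitotic entry, stood at 227, 229 and 208 CPM in FL and at 262, 255 and 249.1 CPM in ΔTFR2 and rose by 0.21 ± 0.05 (0.0157), and CDC20, which activates the anaphase-promoting complex, rose by 0.22 (0.12 without FL replicate 3 and 0.13 without ΔTFR2 replicate 2). Without FL replicate 3 NUF2 was the one called (0.0217), and with the GC trend removed none was.

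Of 46 replication and G1/S genes 3 rose and 1 fell (GC 48.4%). The median was 0.01, against -0.02 without FL replicate 3 and -0.02 with the GC trend removed. CDT1, a replication licensing factor, stood at 55.9, 59.0 and 44.8 CPM in FL and at 65.8, 74.3 and 63.9 CPM in ΔTFR2 and rose by 0.35 ± 0.09 (0.0171). E2F1 and LIG1 rose by 0.30 and 0.29. Without FL replicate 3 CDT1 was at 0.23 and LIG1 at 0.17. CCNE2, a cyclin of the G1/S transition, stood at 35.4, 34.9 and 27.2 CPM in FL and at 24.9, 25.2 and 28.0 CPM in ΔTFR2 and fell by 0.33 ± 0.10 (0.0316). FL replicate 3 of CCNE2 lay within the ΔTFR2 range, and without that library its adjusted p was 0.0133. With the GC trend removed CCNE2 was at -0.17 (0.486), and no member of the list passed. Of 35 kinesins 4 rose and 2 fell (GC 48.4%), none of them without FL replicate 3 or with the GC trend removed. They include KIFC3, which rose by 0.27 (0.17 without FL replicate 3), and the mitotic KIF20B, which fell by 0.22.

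Metabolic genes that passed were mostly higher in ΔTFR2. Of 26 genes of glycolysis and the pentose phosphate pathway 7 rose and none fell (median 0.11, against 0.06 without FL replicate 3 and 0.02 with the GC trend removed, GC 53.2%). PKM, the pyruvate kinase of the last step of glycolysis, stood at 1881, 1982 and 1771 CPM in FL and at 2095, 2138 and 2097 CPM in ΔTFR2 and rose by 0.17 ± 0.04 (0.0138). PGLS, of the oxidative pentose phosphate pathway, stood at 35.9, 40.7 and 33.1 CPM in FL and at 48.7, 47.8 and 45.2 CPM in ΔTFR2 and rose by 0.37 ± 0.08 (0.00957). TPI1, ENO1, HK1, TKT and GAPDH rose by 0.11 to 0.19, of which ENO1 and HK1 were at 0.09 and 0.12 without FL replicate 3 and GAPDH at 0.06 without ΔTFR2 replicate 2. GAPDH turned to -0.03 with the GC trend removed. The 7 had groups that did not overlap, as did 95.5% of all called genes. PGLS passed without FL replicate 3 (0.0493), and none passed with the GC trend removed.

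Of 39 fatty acid and peroxisome genes 5 rose and 1 fell (median 0.04, against 0.01 without FL replicate 3 and 0.01 with the GC trend removed, GC 47.4%). FASN, the fatty acid synthase, stood at 599, 635 and 543 CPM in FL and at 684, 717 and 697 CPM in ΔTFR2 and rose by 0.24 ± 0.05 (0.00957). ACLY, which makes cytosolic acetyl-CoA from citrate, stood at 328, 321 and 288 CPM in FL and at 349, 366 and 362 CPM in ΔTFR2 and rose by 0.20 ± 0.05 (0.015). Both had ΔTFR2 above every FL library, and FASN passed without FL replicate 3 (0.0372). MLYCD, which breaks down malonyl-CoA, rose by 0.75 from low levels. Of 25 cholesterol genes MVD, PMVK and DHCR7, enzymes of the pathway, rose by 0.49, 0.60 and 0.28, while the sterol carrier STARD4 fell by 0.53 (GC of the list 50.5%). PMVK was at 0.38 without FL replicate 3, and STARD4 at -0.34 without ΔTFR2 replicate 2. No member of these 2 lists passed with the GC trend removed.

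Of 33 genes of nucleotide supply 2 rose and 5 fell (median 0.07, against 0.01 without FL replicate 3 and -0.03 with the GC trend removed, GC 48.1%). CMPK1, a pyrimidine monophosphate kinase, stood at 241, 223 and 269 CPM in FL and at 201, 202 and 206 CPM in ΔTFR2 and fell by 0.27 ± 0.06 (0.00957). PPAT, the first committed enzyme of purine synthesis, stood at 98.3, 99.3 and 104 CPM in FL and at 80.5, 86.2 and 86.4 CPM in ΔTFR2 and fell by 0.25 ± 0.06 (0.011). Both lay below every FL library and passed without FL replicate 3 (0.03 and 0.0296). AK4, ADSS and PAICS fell by 0.15 to 0.23, and NME4 rose by 0.24 beside NME2. With the GC trend removed none passed.

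Nuclear genes for mitochondrial proteins were called higher more often than lower. Of 46 subunits and assembly factors of complex I, the NADH dehydrogenase, 5 rose and 1 fell (median 0.11, against 0.07 without FL replicate 3 and 0.06 with the GC trend removed, GC 47.9%). NDUFS8 stood at 34.6, 39.9 and 28.8 CPM in FL and at 45.9, 52.2 and 44.3 CPM in ΔTFR2 and rose by 0.46 ± 0.09 (0.00957), and it passed without FL replicate 3 (0.0296). NDUFB5 stood at 92.9, 86.2 and 108 CPM in FL and at 76.9, 79.6 and 76.5 CPM in ΔTFR2 and fell by 0.30 ± 0.07 (0.0149). Neither overlapped between the groups. Of 48 genes of complexes III, IV and V 5 rose, COX17, COX8A, UQCRFS1, ATP5G3 and ATP5G2, and CYCS, which encodes cytochrome c, fell by 0.14. UQCRFS1 and ATP5G3 moved from 0.25 and 0.21 to 0.17 and 0.12 without FL replicate 3. Of 77 mitochondrial ribosomal proteins 8 rose and 2 fell (median 0.08, against 0.04 without FL replicate 3, GC 47.7%), with MRPL53 at 0.37 among the rises and MRPL19 at -0.24 among the falls. With the GC trend removed none of these 3 lists had a call. Only 33 of the 48 genes of complexes III, IV and V had a GC value. That check is void for the rest, ATP5G2 and ATP5G3 among them.

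In the machinery of translation, 13 of 83 cytosolic ribosomal protein genes rose and 1 fell (median 0.13, against 0.06 without FL replicate 3, GC 48%). RPS18 stood at 650.1, 675 and 564 CPM in FL and at 720.0, 807 and 778 CPM in ΔTFR2 and rose by 0.29 ± 0.06 (0.0138). RPL3 stood at 885, 940.1 and 816 CPM in FL and at 978, 1056 and 971 CPM in ΔTFR2 and rose by 0.19 ± 0.05 (0.015). RPS3A, which fell by 0.21 ± 0.04 (0.00957), stood at 658, 661 and 749.8 CPM in FL and at 599, 596 and 599 CPM in ΔTFR2. Without FL replicate 3 RPL3 was at 0.12. In each of the 3 the ΔTFR2 libraries lay on one side of the FL libraries. RPS18 rose and RPS3A fell without FL replicate 3, and none of the 3 passed with the GC trend removed. Ribosomal protein genes have many processed pseudogenes, so how reads were split among copies is uncertain.

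Of 49 translation initiation factor genes 6 rose and 5 fell (GC 45.6%). The median was -0.02, against -0.03 without FL replicate 3 and -0.01 with the GC trend removed. EIF4EBP1, the repressor of cap binding that mTOR phosphorylates, stood at 49.4, 57.4 and 43.4 CPM in FL and at 65.7, 74.9 and 67.2 CPM in ΔTFR2 and rose by 0.47 ± 0.09 (0.00957). EIF3E, a subunit of the initiation complex eIF3, stood at 438, 399.8 and 488 CPM in FL and at 374.9, 369 and 388 CPM in ΔTFR2 and fell by 0.23 ± 0.05 (0.0138). Both sets of libraries were apart, and EIF4EBP1 passed without FL replicate 3 (0.0269). With the GC trend removed neither EIF4EBP1 nor EIF3E passed (0.0873 and 0.396). Of 20 aminoacyl-tRNA synthetases 1 rose and 1 fell (10% called, as of all tested genes). FARSA, which charges phenylalanine tRNA, stood at 195, 213 and 164 CPM in FL and at 239.9, 265 and 246 CPM in ΔTFR2. It rose by 0.39 ± 0.08 (0.0141), passed without FL replicate 3 (0.0153) and missed with the GC trend removed (0.0579). RARS fell by 0.14 (0.0484) and passed in neither of these fits (0.237 and 0.635).

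Of 57 replication-dependent histone genes 8 rose and none fell, with a median of 0.25 and a GC content of 57.4%. HIST2H2BE stood at 298, 315 and 299.6 CPM in FL and at 335, 379 and 339 CPM in ΔTFR2 and rose by 0.20 ± 0.05 (0.0149). HIST3H2A stood at 61.7, 65.7 and 49.9 CPM in FL and at 77.3, 84.2 and 70.1 CPM in ΔTFR2 and rose by 0.38 ± 0.09 (0.0168). In 26 of the 57 all ΔTFR2 libraries lay above all FL libraries, against 15.3% of all tested genes. HIST2H2BE was at 0.13 without ΔTFR2 replicate 2. No histone gene passed without FL replicate 3 or with the GC trend removed, and the list's median was then 0.13 and 0.19. The median deviation of the list from the mean of the 6 libraries was -0.35 in FL replicate 3 and between -0.09 and 0.24 in the other 5. Many of these genes are near-identical copies, so how reads were split among them is uncertain, and most of their transcripts lack the poly(A) tail of other mRNAs.

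Genes that handle RNA were called in both directions. Of 36 SR proteins and hnRNPs, which bind and splice pre-mRNA, 3 rose and 4 fell (median 0.01, against -0.04 without FL replicate 3 and 0.07 with the GC trend removed, GC 41.3%). The falls were the SR proteins SRSF1, SRSF2, SRSF3 and SRSF10, and the rises were HNRNPA1, HNRNPL and HNRNPUL1. SRSF1 stood at 535, 511 and 586 CPM in FL and at 468, 482 and 482 CPM in ΔTFR2 and fell by 0.19 ± 0.05 (0.0146). HNRNPL stood at 458, 457 and 431 CPM in FL and at 486, 529.8 and 484 CPM in ΔTFR2 and rose by 0.16 ± 0.04 (0.0256). Without ΔTFR2 replicate 2 HNRNPL was at 0.10. Neither gene overlapped between the groups, and no member passed without FL replicate 3 or with the GC trend removed. Of 48 DEAD-box and DEAH-box helicases 4 rose and 6 fell (GC 47.1%). DDX6, a helicase of mRNA decay, fell by 0.21 ± 0.04 (0.00957) and passed without FL replicate 3 (0.0273). With the GC trend removed DDX6 was at -0.09 (0.234), and no helicase of the list passed.

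RNA polymerase subunits also went both ways, 3 of 29 up and 3 down (GC 49.7%). The rises were POLR2L (0.38), POLR2E (0.34) and POLR2F (0.31), and the falls were POLR2K (-0.31), POLR3F (-0.29) and POLR3G (-0.29). POLR2L stood at 78.8, 85.5 and 64.5 CPM in FL and at 96.8, 104 and 97.9 CPM in ΔTFR2, and POLR2K at 90.6, 84.3 and 111 CPM in FL and at 76.3, 78.5 and 75.7 CPM in ΔTFR2. Without FL replicate 3 POLR2E was at 0.22 and POLR2K at -0.20. POLR2L was the member called without FL replicate 3 (0.029), and none was with the GC trend removed. No Mediator subunit of 30 was called. Of 67 chromatin modifiers none rose and 2 fell (2.99% called, against 10% of all tested genes). SUZ12, a core subunit of the Polycomb complex PRC2, stood at 162, 141 and 171 CPM in FL and at 131, 136 and 135 CPM in ΔTFR2. It fell by 0.24 ± 0.06 (0.0149), and KDM3A fell by 0.22. Neither passed without FL replicate 3 (0.0611 and 0.168) or with the GC trend removed (0.421 and 0.331). Of 456 zinc finger genes of the ZNF series 9 rose and 11 fell (GC 42.8%), 2 fell without FL replicate 3 and 1 with the GC trend removed. Their median was -0.02, against -0.04 without FL replicate 3 and 0.02 with the GC trend removed.

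Among genes of membrane traffic, the called SNARE and vesicle fusion genes were lower, while RAB GTPases were called both ways. Of 44 SNARE and vesicle fusion genes none rose and 6 fell (median -0.04, GC 46.7%). STX12, a syntaxin of endosomes, stood at 45.7, 41.8 and 49.3 CPM in FL and at 36.5, 36.9 and 35.3 CPM in ΔTFR2 and fell by 0.33 ± 0.08 (0.0132). VAMP3, the SNARE of recycling vesicles, stood at 143, 138 and 168 CPM in FL and at 133, 122 and 119.6 CPM in ΔTFR2 and fell by 0.26 ± 0.06 (0.0149). STXBP3, SCFD1, NAPB and VAMP4 fell by 0.24 to 0.57. All 6 had ΔTFR2 below every FL library, and the groups were likewise apart in 95.5% of all called genes. None of the 6 passed without FL replicate 3 or with the GC trend removed. Of 50 RAB GTPases 4 rose (RAB1B, RAB34, RAB5C and RAB35) and 2 fell (RAB2A and RAB14; GC 45.1%), none of them without FL replicate 3 or with the GC trend removed, and none of 18 V-ATPase subunits was called.

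Adhesion and matrix lists had 7.41% to 11.8% of their tested members called, against 10% of all tested genes. Of 17 integrin subunits none rose and 2 fell. ITGAV, the alpha chain of vitronectin receptors, stood at 133, 125 and 137 CPM in FL and at 113, 105 and 115 CPM in ΔTFR2 and fell by 0.25 ± 0.06 (0.011), and it passed without FL replicate 3 (0.0296). With the GC trend removed ITGAV was at -0.10 (0.317) and was not called. ITGA2, a collagen receptor chain, fell by 0.17. Of 38 extracellular matrix genes 3 rose, COL5A1, LAMB3 and AGRN (GC 51.6%), and AGRN turned to -0.05 with the GC trend removed. Of 27 matrix proteases and inhibitors TIMP1, an inhibitor of MMP9 and related proteases, stood at 118, 114 and 116 CPM in FL and at 129.7, 139 and 134 CPM in ΔTFR2 and rose by 0.21 ± 0.05 (0.0187), and ADAM15 rose by 0.28 (0.16 without FL replicate 3). Neither passed without FL replicate 3 or with the GC trend removed.

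Calls among melanoma state genes lay in the dedifferentiated list, at 19.2% of its members against 10% of all tested genes. None of 13 melanocyte lineage genes was called, with a median of 0.06, against 0.01 without FL replicate 3 and 0.01 with the GC trend removed. Of 26 genes of dedifferentiated melanoma 2 rose (VIM and FOSL1) and 3 fell (CAV1, ITGA2 and INHBA; GC 48.9%), and none passed without FL replicate 3 or with the GC trend removed. KRT8 and KRT18, keratins of simple epithelia, stood at 145, 153 and 126 CPM in FL and at 157, 176 and 165 CPM in ΔTFR2 and at 315, 315 and 287 CPM in FL and at 329, 354 and 342 CPM in ΔTFR2. Both rose, by 0.23 ± 0.06 (0.0189) and 0.16 ± 0.05 (0.0374). They were at 0.14 and 0.10 without FL replicate 3. Of 16 epithelial markers with a row, 6 were tested, and of the other 4 none was called and 3 lay below 0, the lowest at -0.06. The groups of KRT8 and KRT18 did not overlap, and neither passed without FL replicate 3 (0.141 and 0.222). Of 20 androgen response genes 1 fell (TPD52, by 0.23) and none rose.

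Among secreted and innate immune genes, CXCL8, a chemokine that melanoma cells release, stood at 52.96, 52.4 and 58.8 CPM in FL and at 47.0, 43.1 and 38.2 CPM in ΔTFR2 and fell by 0.35 ± 0.08 (0.0116). IL24, a cytokine of melanocytic cells, stood at 58.4, 60.4 and 60.6 CPM in FL and at 71.4, 64.8 and 70.5 CPM in ΔTFR2 and rose by 0.20 ± 0.07 (0.0465). These were the 2 calls among 22 NF-kB targets, cytokines and chemokines, and the groups did not overlap in either. CXCL8 passed without FL replicate 3 (0.043) and IL24 did not (0.114). With the GC trend removed CXCL8 was at -0.15 (0.357), and IL24 did not pass either (0.116). Of 35 interferon-stimulated genes 2 rose, OAS1, a sensor of double-stranded RNA, and PSMB8, an immunoproteasome subunit. OAS1 stood at 5.08, 4.02 and 4.64 CPM in FL and at 8.43, 6.87 and 7.43 CPM in ΔTFR2 and rose by 0.72 ± 0.18 (0.0148). It missed the threshold without FL replicate 3 (0.0501) and with the GC trend removed (0.0628).

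Protein folding and stress genes were mixed. Of 32 genes of the unfolded protein response 2 rose and 3 fell (GC 45.7%). DNAJC10, a disulfide reductase of the endoplasmic reticulum, stood at 122.6, 112 and 136 CPM in FL and at 96.4, 95.2 and 102 CPM in ΔTFR2 and fell by 0.34 ± 0.07 (0.011). EDEM3, which marks misfolded glycoproteins for disposal, stood at 163, 141 and 174 CPM in FL and at 129.9, 132 and 129.9 CPM in ΔTFR2 and fell by 0.28 ± 0.06 (0.00957). Both lay below every FL library and passed without FL replicate 3 (0.03 and 0.0312). Of 23 heat shock genes HSF1, AHSA1 and HSPB1 rose by 0.24, 0.24 and 0.35, and HSPE1 and CHORDC1 fell (GC 50.2%), of which CHORDC1 turned from -0.18 to 0.01 with the GC trend removed. Of 31 genes of the integrated stress response (GC 52.3%) ATF5 and SESN2 rose, and SLC7A11, the cystine transporter, fell by 0.30 ± 0.07 (0.0171) from 135, 127 and 159.6 CPM to 113, 114 and 113 CPM. Of the genes in these 3 lists HSPE1 alone passed with the GC trend removed.

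In protein degradation, 6 of 37 proteasome subunits rose and 2 fell (median 0.05, against 0.03 without FL replicate 3 and 0.10 with the GC trend removed, GC 47.5%). PSMB3 stood at 117, 127 and 108 CPM in FL and at 141, 161 and 142 CPM in ΔTFR2 and rose by 0.34 ± 0.07 (0.0119). PSMA1 stood at 178, 171 and 208 CPM in FL and at 164, 152 and 157 CPM in ΔTFR2 and fell by 0.23 ± 0.06 (0.0149). Both encode parts of the core particle. No proteasome gene was called without FL replicate 3, and with the GC trend removed PSMA6, not called before, was the one that passed, as higher. Of 39 genes named as ubiquitin-conjugating enzymes, one of them the pseudogene UBE2CP5, 4 rose and 6 fell (GC 46.4%), none passed with the GC trend removed, and UBE2M, which conjugates NEDD8, turned from 0.20 to -0.01 with the GC trend removed. UBE2B, a partner of RAD18 in DNA damage tolerance, stood at 74.6, 65.1 and 82.6 CPM in FL and at 59.0, 56.9 and 56.0 CPM in ΔTFR2 and fell by 0.37 ± 0.08 (0.00957), and it passed without FL replicate 3 (0.0296). Of 34 autophagy genes 4 rose and 2 fell (GC 47.3%), none of them without FL replicate 3 or with the GC trend removed, with ATG101, of the ULK1 initiation complex, at 0.39 and GABARAPL2 at -0.24, and 2 of 34 lysosomal genes (TPP1 and LAMP2) fell.

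Noncoding RNAs were counted last. Of 456 antisense RNAs 13 rose and 2 fell (median 0.08, against 0.05 without FL replicate 3, GC 48.4%), and 2 rose and 1 fell without FL replicate 3. With the GC trend removed RUSC1-AS1 rose and HIF1A-AS2 fell. Of 204 long intergenic RNAs 3 rose and 1 (LINC01419) fell. Of 22 host genes of small nucleolar RNAs 2 rose. SNHG12 stood at 18.6, 19.1 and 13.0 CPM in FL and at 21.8, 27.2 and 23.7 CPM in ΔTFR2 and rose by 0.51 ± 0.12 (0.011), and SNHG17 rose by 0.28. FL replicate 3 was the lowest library of both, and neither passed without it (0.068 and 0.0937).

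**Figure D5:**
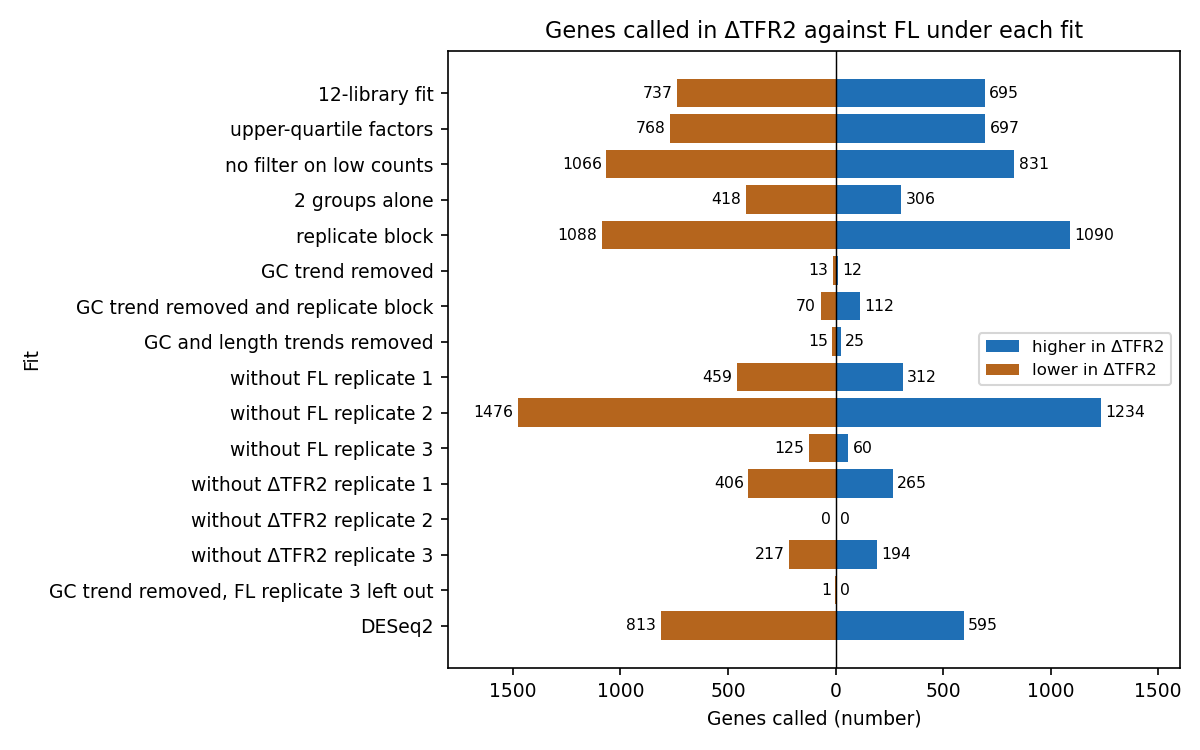
Number of genes called higher (right) and lower (left) in ΔTFR2 under each fit. The count is 1432 with 12 libraries, 25 with the GC trend removed, 185 without FL replicate 3 and 0 without ΔTFR2 replicate 2.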

How the data were processed

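RNA-seq was measured in 24 A375 libraries, of which the 6 of this comparison held 8655057 to 10789211 counts. Raw counts per gene symbol (28008 genes) were used as the authors deposited them. Per the submitters' processing notes reads were handled with STAR 2.7.3a, cutadapt 2.5, FastQC 0.11.5, Subread 1.6.2 (featureCounts) and DESeq2 1.24.0, and GRCm38 and GRCh38 are named. Neither annotation release nor strand setting is given in the sources used here. In 27 genes the symbol had become a date, and the table held no mitochondrially encoded gene. The deposited estimated counts of batch 2 were not used.

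Counts were fitted with edgeR 4.0.16 in R 4.3.3: filterByExpr (minimum count 10, total 15), TMM scaling, and a robust quasi-likelihood test over 12 libraries in 4 groups. The contrast was ΔTFR2 minus FL, with Benjamini-Hochberg adjustment over 14310 genes and calls at an adjusted p under 0.05. The common biological coefficient of variation was 0.0503. Levels are CPM on TMM library sizes, and SE is the log2 fold change over the square root of F. Every replicate pair of the 2 groups differed by more than sampling noise (chi-square per gene 1.50 to 7.12). GC content came from the longest GENCODE 29 transcript per symbol (13475 genes, 94.2%), and the trend of each library was removed as a lowess offset (span 0.3). Purine and pyrimidine runs were counted in the 250 bases upstream of RefSeq starts.

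The alternatives were DESeq2 1.42.0, upper-quartile factors, no filter, the 2 groups alone, a replicate block, removal of GC or GC and length trends, and leaving out each library. The script was tested on simulated data. Genes were named as SLNCR and its linked genes, the 10 largest rises and falls whose mean log2 CPM reached 1 and whose groups were apart, genes also called with the GC trend removed, and the 4 lowest adjusted p of lists with at least 3 calls. Other named genes were chosen after their values were seen. The comparison and the lists were chosen with earlier results of these data known. Values of 4 genes of these rules and lists are not reported here.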

Additional observations from a re-analysis of the deposited data

How the results depend on the processing

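Counts of called genes depended on the fit. Upper-quartile factors gave 1465, no filter on low counts 1897 and DESeq2 1408, all within 1.5 times the 1432 of the 12-library fit. DESeq2 shared 1230 of the 1432. It gave no adjusted p for 6659 of the 14310 genes, 141 of the 1432 among them, so its calls come from fewer genes. The 2 groups alone gave 724 (306 higher, 418 lower), 717 of them among the 1432. Removing the GC trend gave 25 (12 higher, 13 lower), removing GC and length trends 40 (25 higher, 15 lower), and removing the GC trend with FL replicate 3 left out, a setting chosen after seeing the data, 1 (0 higher, 1 lower). Leaving out 1 library at a time gave 0 to 2710 genes, 0 to 1234 higher and 0 to 1476 lower. The 0 came without ΔTFR2 replicate 2 and the 2710 without FL replicate 2. The others were 771 without FL replicate 1, 185 without FL replicate 3, 671 without ΔTFR2 replicate 1 and 411 without ΔTFR2 replicate 3. The share of higher calls was 48.5% in the 12-library fit, and among the fits without 1 library that made calls it was lowest without FL replicate 3, where 60 of 185 were higher. The cause of these changes was not tested.

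With a replicate block 2178 genes were called (1090 higher, 1088 lower), and with the block and the GC trend removed 182 (112 higher, 70 lower). Same-numbered libraries did not deviate together (correlations -0.03, 0.01 and 0.03), so the numbers were not taken as pairs.

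SLNCR differed by -0.25 (adjusted p = 0.0215) without FL replicate 1, which passed, and by 0.0117 without FL replicate 2. Its direction and side of the threshold held in the other settings. SLNCR has no GC value, so no trend was removed for it, and the fits with GC or length trends removed are no check of its base composition. Of the 160 called genes that the naming rule chose, 20 were also called with the GC trend removed, 36 without FL replicate 3 and none without ΔTFR2 replicate 2. Of 276 called genes that are named or in a list, 7 turned sign with the GC trend removed, GAPDH and CHORDC1 among them. Values of 5 genes that turned in some fit follow. With the GC trend removed, with the block as well, with GC and length removed, and with GC removed and FL replicate 3 left out, in this order, FOSL1 was at -0.0122, -0.0126, -0.0284 and -0.00363, JUND at -0.0313, -0.0316, -0.0411 and -0.0403, and AGRN at -0.0461, -0.0464, -0.0368 and -0.0310. UBE2M was at -0.0143, -0.0144 and -0.0352 in the first 3 of these. HIF1A was at 0.0015 with GC and length removed and at 0.0200 with GC removed and FL replicate 3 left out. Depth limits genes near the filter: PLPP4 rests on 19 to 47 counts per library.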
